A study of Mus musculus with 12 samples.

Results

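The genes described here are 10 genes of the actin cytoskeleton: the actins Actb, Actg1 and Acta2, the actin-binding genes Tagln, Cnn1 and Cnn2, the myosin light chain gene Myl9, the tropomyosins Tpm1 and Tpm2, and Vcl. They were chosen by name, as the rows of the deposited count tables whose Ensembl mouse gene ID maps to these symbols, and all 10 were found among 55536 gene IDs. Actins are the subunits of the filaments that give fibroblasts their shape and traction. Many genes for actin and its partners are known targets of serum response factor (SRF), which binds the CArG box in their promoters. Its cofactors MRTF-A and MRTF-B (Mrtfa and Mrtfb) are held by unpolymerised actin and enter the nucleus when actin is built into filaments.

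The cells were mouse embryonic fibroblasts (MEF), which are cultured connective tissue cells. HF cells received 100 nM halofuginone, known as an inhibitor of the charging of proline tRNA, and control cells received none. Both were kept for 6 h in high-glucose DMEM with dialyzed fetal bovine serum and antibiotics. The series has 4 groups of 3 libraries, since control and HF cells were each read as total RNA and as ribosome footprints (RPF, the mRNA fragments that ribosomes protect from nuclease). The labels name no genotype or cell clone and do not say whether libraries of a group came from separate cultures. The p-values set the difference between HF and control against the spread among libraries of a group, and that spread may be technical.

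Library totals were 718096 to 1697554 counts in RNA and 562794 to 2527791 in RPF. Levels are given as CPM, counts relative to the library's sum over genes that passed the filter on low counts (in RPF, protein-coding genes only). They were scaled by library factors within each assay, so RNA and RPF values of a gene are on separate scales. The ribosomal-RNA-overlapping locus Gm42418 took 11.8% to 13.7% of RNA counts in control and 7.35% to 9.48% in HF libraries, and 1.12% in RPF control 1, the highest of the RPF libraries. Of 11 fibroblast markers, 8 had counts in RNA, while Dcn, Lum and Fap were at 0. The summed RNA level of these markers was 6262 to 6599 CPM in control and 4521 to 4680 in HF libraries, and in RPF it was 13720 to 14570 and 8429 to 8614 (2 markers, Lum and Fap, at 0). Among smooth muscle markers Myh11, Des, Lmod1 and Myocd were at 0 in all RNA libraries, and the summed level of the 10 was 102.9 to 158.6 CPM in control and 160.1 to 175.4 in HF libraries. In footprints it was 191.1 to 200.7 and 204.3 to 255.9 CPM, with Lmod1 and Mustn1 the markers at 0 in HF libraries. Of these 10 markers, 2 passed the filter in each assay, and neither passed the test of HF against control there. Of the 7 epithelial markers only 2 had RNA counts, and Epcam, Cdh1 and Krt8 were among those at 0. The 7 summed to 71.88 to 87.16 CPM in control and 194.5 to 200.5 in HF RNA. Only 1 of them, Krt19, passed the filter in RNA, where it rose by 1.28 on the log2 scale. In footprints the summed levels of the 7 overlapped, at 233.5 to 288.7 CPM in control and 217.5 to 377.3 in HF libraries. Macrophage and leukocyte markers summed to 25.14 to 29.51 CPM in control and 0 to 11.37 in HF footprints. Ptprc, Adgre1 and Lyz2 were at 0 in the footprints of both groups. In RNA the ranges of these markers overlapped, at 6.301 to 19.73 CPM in control and 0 to 9.824 in HF libraries. Endothelial markers summed to 0 to 1.61 CPM in control and 6.157 to 15.72 in HF RNA, and overlapped in footprints. Neural markers summed to 68.93 to 89.47 CPM in control and 28.44 to 60.66 in HF footprints, and overlapped in RNA. Skeletal and cardiac muscle markers overlapped in both assays. The part of these shifts in the results that follow was not tested. In bulk libraries, fewer cells of a type and less RNA per cell cannot be told apart.

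Promoter sequence was read from RefSeq (GRCm38.p6) for 8 of the 10 genes, from 250 bases before to 50 after the start given with each promoter. For Acta2, Myl9 and Vcl this start lies inside the gene bounds given below, and the stretch printed for Acta2 lies wholly inside them. Actb and Tagln had no entry. The CArG box was found in 4 of the 8 promoters, those of Actg1, Cnn2, Myl9 and Vcl, and in 1.63% of the 32851 promoters of the table. After the sequences had been seen, a box with 1 of its middle 6 bases not A or T was also searched. This form was present at 2 places in the Acta2 promoter and 1 in that of Myl9, and either form in 9.98% of all promoters. The stretches around the boxes are printed so that the known SRF site can be set beside each gene's response. They run 5′ to 3′ on the gene's strand, and capitals mark the boxes of either form. They lie at chr11:120348536-120348625 (minus strand) for Actg1, chr19:34255374-34255497 (minus) for Acta2, chr10:79988504-79988593 (plus) for Cnn2, chr2:156775263-156775414 (plus) for Myl9 and chr14:20929148-20929220 (plus) for Vcl.
Actg1: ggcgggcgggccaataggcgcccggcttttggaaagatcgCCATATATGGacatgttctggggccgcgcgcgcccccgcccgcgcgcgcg
Acta2: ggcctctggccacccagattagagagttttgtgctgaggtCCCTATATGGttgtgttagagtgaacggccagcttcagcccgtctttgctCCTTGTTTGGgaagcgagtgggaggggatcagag
Cnn2: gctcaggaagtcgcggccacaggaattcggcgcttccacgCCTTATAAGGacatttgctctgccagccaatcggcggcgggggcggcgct
Myl9: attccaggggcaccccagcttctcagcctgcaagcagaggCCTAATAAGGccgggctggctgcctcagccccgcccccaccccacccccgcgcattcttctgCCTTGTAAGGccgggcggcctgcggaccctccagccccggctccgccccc
Vcl: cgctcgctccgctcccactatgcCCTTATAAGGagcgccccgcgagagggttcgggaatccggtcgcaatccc

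Distances here are from the start given with each promoter, not from the gene bounds. The CArG box began 90 bases before the start in Actg1, 56 in Cnn2, 161 in Myl9 and 227 in Vcl. The boxes of Acta2 began 84 and 34 bases before the start, and the second box of Myl9 began at 99. The promoters of Cnn1, Tpm1 and Tpm2 held no box of either form in this window. Other motifs searched on both strands were the Sp1 box GGGCGG, present in 35.7% of all promoters, the MCAT element CATTCC, in 14.7%, and the TATA box TATAAA, in 13.6%. The MCAT element was found in the promoters of Acta2, Tpm1 and Vcl. At least 1 Sp1 box was found in those of Actg1, Cnn2, Myl9, Tpm1, Tpm2 and Vcl, and the TATA letters in none of the 8. Such matches describe the sequence and do not show binding.

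**Figure D1:**
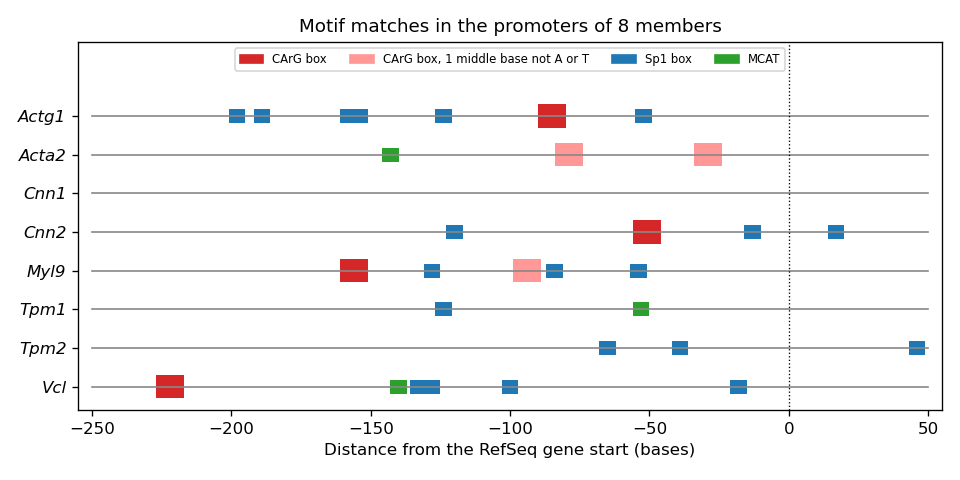
Motif matches in the promoters of 8 genes, with distance in bases from the RefSeq start given with each promoter on the x axis and 1 line per gene. Boxes mark the CArG box, its form with 1 middle base not A or T, the Sp1 box and the MCAT element; Cnn1 has none of them, and Tpm1 and Tpm2 have no CArG box.

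The 10 genes did not move together. In total RNA, Actb, Acta2, Cnn2, Tpm1 and Tpm2 fell with HF, Tagln rose, and Actg1 and Vcl did not pass the test. Among footprints, Actb, Acta2 and Cnn2 fell by 1.42-fold to 1.83-fold, and Tpm1 and Tpm2 by 3.61-fold and 2.91-fold. Translational efficiency (TE, footprints relative to RNA, tested as the assay-by-treatment interaction) fell for the tropomyosins Tpm1 and Tpm2 and did not pass the test in the other 6 genes tested. TE here is a ratio of counts, and protein was not measured. Whether it follows protein output when the charging of proline tRNA is inhibited was not tested. On simulated data the TE test often missed changes of the smaller size tried, so a TE difference that did not pass may still be present. Across the 6 genes that did not pass, the 95% intervals of the TE difference ran from -0.43 (Tagln) to 0.67 (Actg1) on the log2 scale. The counts were 1 higher and 5 lower of 8 tested in RNA, where 43.7% of 9145 genes tested were called (22.2% higher, 21.4% lower). They were 0 higher and 5 lower of 9 in RPF, where 43.3% of 8373 protein-coding genes were called (22.4% higher, 20.9% lower). They were 0 higher and 2 lower of 8 in TE, where 14.4% of 7926 were called (6.13% higher, 8.23% lower). The groups were free of overlap in 6 of 8 genes in RNA, 5 with HF below and 1 with HF above, where 51.3% of all genes did not overlap (25.5% below, 25.9% above). In RPF 5 of 9 did not overlap, all with HF below, where the share over all genes was 51.4% (26.2% below, 25.2% above). Calls are edgeR quasi-likelihood tests with Benjamini-Hochberg adjusted p under 0.05, and the 3 comparisons share libraries. The median log2 fold change was -0.34 in RNA, -0.50 in RPF and 0.04 in TE for the tested genes of the 10, and -0.02, -0.02 and 0.00 for all genes tested.

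**Figure D2:**
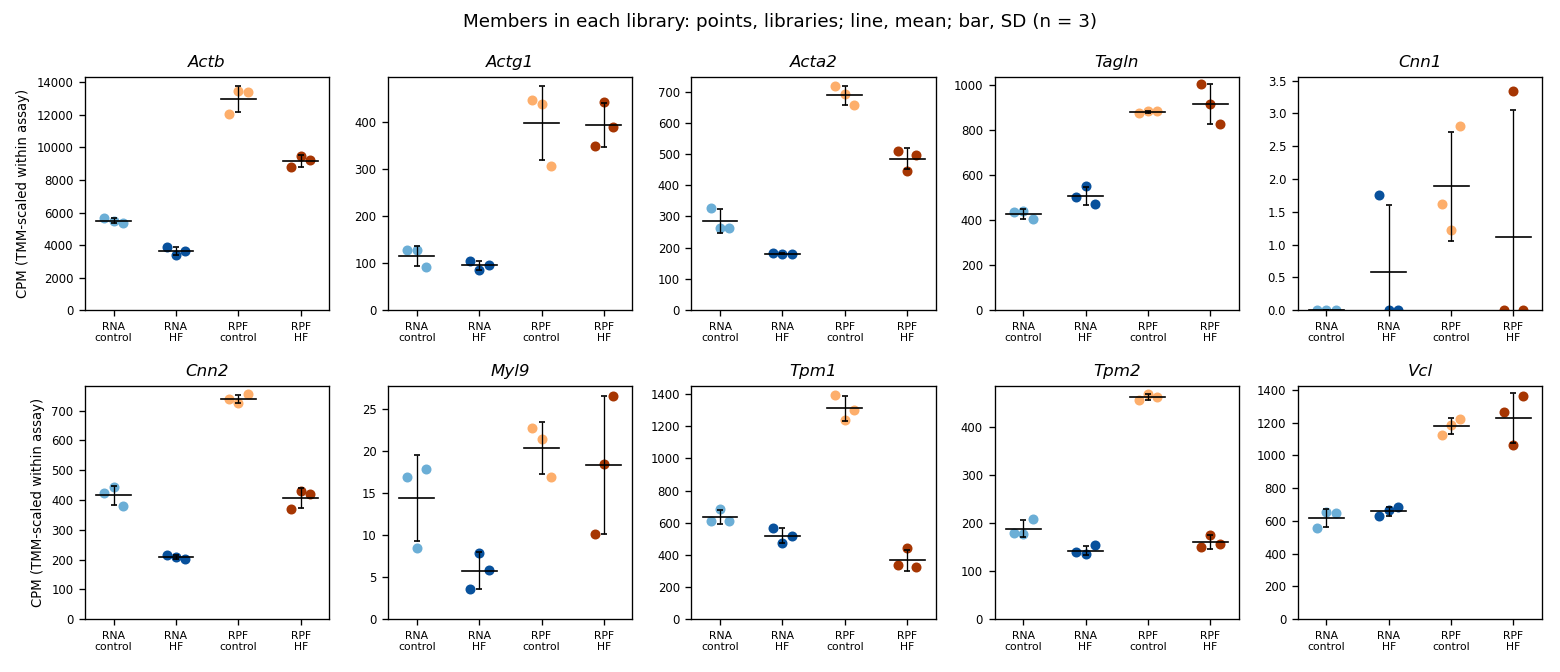
Level of each of the 10 genes in every library, in CPM scaled within assay on a linear y axis that starts at 0, with 1 panel per gene. Points are libraries, lines group means and bars SD (n = 3); in Tpm1 and Tpm2 the HF footprints lie far below the control footprints, and the HF RNA points lie below the control RNA points by a smaller gap.

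Actb (ENSMUSG00000029580, chromosome 5 from 142903115 to 142907976 in GRCm38) encodes the cytoplasmic beta actin that is often used as a reference transcript. Its RNA level was 5673, 5480.1 and 5358 CPM in the control libraries and 3878, 3414 and 3653 in the HF libraries. Its footprints were at 12088, 13497 and 13436 CPM in control and 8794, 9491 and 9255 in HF libraries. Every HF library lay below every control library in both assays. The RNA fell 1.51-fold (log2 fold change -0.59, SE 0.07, edgeR adjusted p = 1.74e-10) and the footprints 1.42-fold (-0.50, SE 0.05, edgeR adjusted p = 2.57e-09). The TE difference was 0.10 on the log2 scale, with a 95% interval of -0.05 to 0.24, and did not pass the test. Actb held most of the counts of the 10 genes, whose summed level went from 8205 ± 195 CPM (SD, n = 3) to 5966 ± 249 in RNA and from 18689 ± 712 to 13158 ± 332 in RPF.

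Acta2 (ENSMUSG00000035783, chromosome 19 from 34240336 to 34255585) encodes smooth muscle alpha actin, which activated fibroblasts also make. Its RNA was at 328, 262 and 265 CPM in control and 182, 179 and 181 in HF libraries, a tight HF group below all controls. Its footprints were at 717, 693 and 656 CPM in control and 511, 447 and 497 in HF libraries, again without overlap. The falls were 1.59-fold in RNA (log2 -0.67, SE 0.13, edgeR adjusted p = 1.09e-05) and 1.42-fold in footprints (-0.50, SE 0.10, edgeR adjusted p = 1.26e-04). The ratio of Acta2 to Actb counts within a library was 0.0478 to 0.0579 in control RNA, 0.0469 to 0.0524 in HF RNA, 0.0488 to 0.0593 in control footprints and 0.0471 to 0.0582 in HF footprints. These ranges overlap in both assays, so both actins fell by amounts that their ratio does not tell apart. The TE difference of Acta2 was 0.17 (-0.14 to 0.48) and did not pass the test.

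Actg1 (ENSMUSG00000062825, chromosome 11 from 120345687 to 120348495) encodes cytoplasmic gamma actin. Its coding sequence is very close to that of Actb, and how reads that match both were counted is not given in the sources used here, so its split from Actb is uncertain. The RNA was at 129, 128 and 91.4 CPM in control and 104, 85.5 and 96.5 in HF libraries, and the footprints at 448, 439 and 308 and 349, 443 and 391. The groups overlapped in both assays, library 3 being the lowest control in each. The log2 differences were -0.28 in RNA (-0.64 to 0.07; edgeR adjusted p = 0.198) and -0.05 in footprints (-0.31 to 0.21; 0.787), so a fall the size of that of Actb lies inside the RNA interval and outside the footprint interval. The ratio of Actg1 to Actb was 0.0170 to 0.0234 in control RNA and 0.0250 to 0.0268 in HF RNA, and 0.0229 to 0.0371 in control and 0.0397 to 0.0467 in HF footprints. In both assays every HF library had the higher ratio. With 3 libraries against 3, an exact two-sided permutation test cannot go below 0.10, and none was run.

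The other actin genes had few or no counts. How reads that match several actin genes were counted is not given, so these counts do not show how such reads were shared. Actbl2 had 0 counts in every library, Actc1 had 1 count in all, in RPF control 2, and Acta1 had 0 in RNA and at most 7 counts in any RPF library. Actg2, the gamma actin of smooth muscle, had 4, 2 and 2 counts in control RNA, 0, 6 and 0 in HF RNA, 15, 11 and 2 in control footprints and 8, 3 and 3 in HF footprints. None of these 4 passed the filter on low counts.

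Tagln (ENSMUSG00000032085, chromosome 9 from 45929628 to 45936058) encodes transgelin, an actin cross-linking protein of smooth muscle and fibroblasts. Its RNA was at 438, 443 and 404 CPM in control and 502, 552 and 472 in HF libraries. All HF libraries lay above all controls. The log2 fold change was 0.25 (SE 0.10, edgeR adjusted p = 0.0426). The call was lost under 8 of 16 alternatives, among them without RNA control 1 (0.26, edgeR adjusted p = 0.065), RNA control 3 (0.20, 0.158) or RNA HF 2 (0.20, 0.164). Its footprints, at 875, 886 and 884 CPM in control and 1006, 915 and 828 in HF libraries, overlapped, with a difference of 0.06 (-0.12 to 0.25). The TE difference was -0.17 (-0.43 to 0.09).

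Cnn2 (ENSMUSG00000004665, chromosome 10 from 79988600 to 79995400) encodes calponin 2, the calponin of non-muscle cells, which binds actin filaments. Its RNA was at 423, 444 and 381 CPM in control and 214, 207 and 200.2 in HF libraries, and its footprints at 739, 727 and 755 and 369, 429.9 and 421. Neither assay showed overlap, and the RNA fall was the deepest of the 8 tested genes. It was 2.01-fold in RNA (log2 -1.01, SE 0.11, edgeR adjusted p = 2.48e-11) and 1.83-fold in footprints (-0.88, SE 0.10, edgeR adjusted p = 2.18e-08). The TE difference was 0.14 (-0.16 to 0.43). The ratio of Tagln to Cnn2, a pair chosen after the values were seen, was 0.997 to 1.06 in control RNA and 2.35 to 2.66 in HF RNA, and 1.17 to 1.22 in control and 1.97 to 2.73 in HF footprints. Cnn2 and Tagln, both encoding actin-binding proteins with a calponin homology domain, thus changed unequally within the same libraries.

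Cnn1 (ENSMUSG00000001349, chromosome 9 from 22099221 to 22109221), the smooth muscle calponin, was near 0 throughout and entered no test. It had 0 counts in the 3 control RNA libraries, of 2978519 in all. This allows up to 1.01 CPM, here relative to all counts, if counts are independent. Since 78.0% to 80.3% of counts from 1 to 20 were even in these libraries, they may not be, and the limit would then be higher. It had 2, 0 and 0 counts in HF RNA, 4, 2 and 2 in control footprints and 0, 2 and 0 in HF footprints. No ratio of Cnn1 to Cnn2 was formed because of these counts.

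Myl9 (ENSMUSG00000067818, chromosome 2 from 156775408 to 156781657) encodes a regulatory light chain of smooth muscle and non-muscle myosin, the subunit phosphorylated in contraction. It was rare, with 21, 6 and 17 counts in control RNA and 4, 8 and 10 in HF RNA, or 16.9, 8.46 and 17.9 CPM against 3.52, 7.86 and 5.89. Its HF libraries lay below all controls, and it did not pass the filter in RNA. Without the filter its RNA difference was -1.30 on the log2 scale (SE 0.62, edgeR adjusted p = 0.127). The footprints were at 22.7, 21.4 and 16.9 CPM in control and 10.1, 18.4 and 26.5 in HF libraries and overlapped, with a difference of -0.32 and an interval of -1.18 to 0.54. That interval holds both 0 and a fall the size of that of Cnn2, so at this depth the footprints do not separate them.

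Vcl (ENSMUSG00000021823, chromosome 14 from 20929383 to 21033676) encodes vinculin, which links actin filaments to integrins at focal adhesions. Its RNA was at 556, 653 and 647 CPM in control and 628, 665 and 683 in HF libraries, and its footprints at 1126, 1184 and 1223 and 1265, 1064 and 1361. The groups overlapped in both assays. The differences were 0.10 in RNA (-0.09 to 0.29), 0.07 in footprints (-0.12 to 0.25) and -0.02 in TE (-0.27 to 0.23), with edgeR adjusted p of 0.435, 0.582 and 0.938. The RNA and footprint intervals leave out falls of the size seen in Actb, Acta2 and Cnn2. Vcl and Cnn2 both have a CArG box of the same 10 letters in the stretches printed above, at different distances from the start.

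Tropomyosins are coiled-coil proteins that lie along actin filaments and govern which other proteins reach them. Tpm1 (ENSMUSG00000032366, chromosome 9 from 67022590 to 67049672) had RNA at 608, 685 and 612 CPM in control and 566, 475 and 516 in HF libraries. Its footprints were at 1395, 1239.7 and 1299.9 CPM in control and 334, 439.9 and 324 in HF libraries. All HF libraries lay below all controls in both assays, with a far wider gap in footprints. The RNA fell 1.22-fold (log2 -0.29, SE 0.10, edgeR adjusted p = 0.0132) and the footprints 3.61-fold (-1.85, SE 0.11, edgeR adjusted p = 1.42e-15). The TE fell 2.95-fold (-1.56, interval -1.84 to -1.28, edgeR adjusted p = 8.89e-12), at percentile 2.28 from the lowest of 7926 genes.

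Tpm2 (ENSMUSG00000028464, chromosome 4 from 43513726 to 43523583) showed the same order. Its RNA was at 179, 178 and 208 CPM in control and 139, 135 and 154 in HF libraries. Its footprints were at 456, 467 and 462 CPM in control and 149.7, 176 and 155 in HF libraries. Neither assay showed overlap. The falls were 1.32-fold in RNA (log2 -0.40, SE 0.14, edgeR adjusted p = 0.0194), 2.91-fold in footprints (-1.54, SE 0.13, edgeR adjusted p = 6.81e-12) and 2.20-fold in TE (-1.14, interval -1.51 to -0.76, edgeR adjusted p = 1.01e-05). The footprint and TE calls of Tpm1 and Tpm2 held under every alternative run, 16 for footprints and 20 for TE. The RNA calls were lost under 4 of 16 alternatives each. For Tpm1 these included leaving out RNA control 2 (-0.23, edgeR adjusted p = 0.0726), RNA HF 2 (-0.22, 0.11) or RNA HF 3 (-0.26, 0.0698), and for Tpm2 RNA control 3 (-0.32, 0.111), RNA HF 1 (-0.34, 0.0871) or RNA HF 2 (-0.34, 0.0813). The ratio of Tpm2 to Tpm1 overlapped in RNA (0.259 to 0.340 in control, 0.245 to 0.298 in HF), and in footprints was 0.327 to 0.377 in control and 0.399 to 0.479 in HF libraries.

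**Figure D3:**
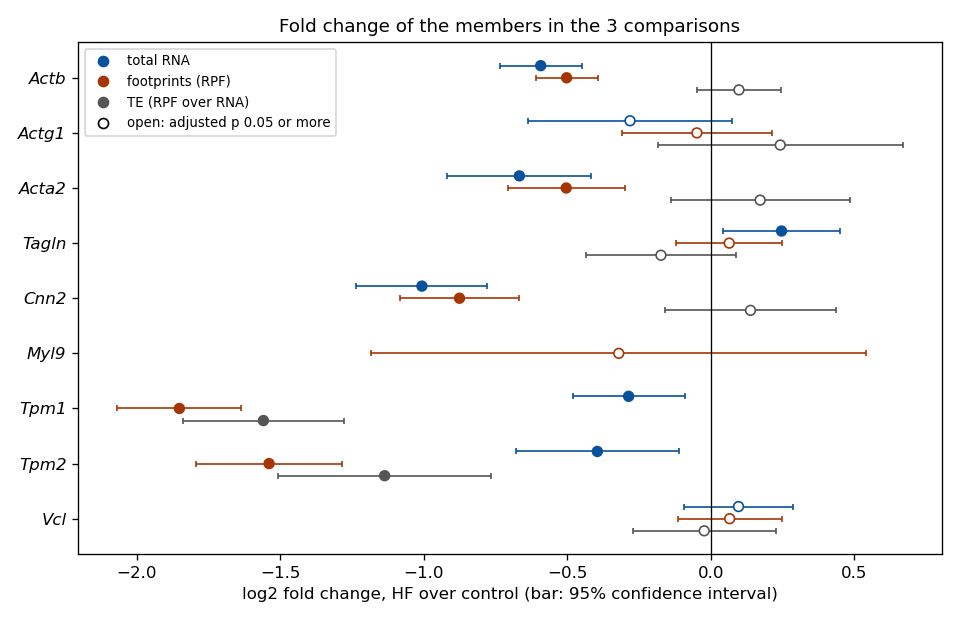
Log2 fold change of HF over control on the x axis, for total RNA, footprints and TE, with 1 line per gene for the 9 genes tested in at least 1 comparison. Points are edgeR estimates, bars 95% confidence intervals, and open points did not reach an adjusted p under 0.05; filled TE points are those of Tpm1 (-1.56) and Tpm2 (-1.14).

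The 2 remaining tropomyosin genes, Tpm3 and Tpm4, were taken in after the values of Tpm1 and Tpm2 had been seen. Tpm3 RNA was at 147, 128 and 125 CPM in control and 125, 126 and 156 in HF libraries, with a difference of 0.03 (edgeR adjusted p = 0.901). Its footprints were at 167, 164 and 117 CPM in control and 65.8, 50.2 and 49.3 in HF libraries. Tpm3 RNA overlapped and its footprints did not, and TE fell by 1.42 on the log2 scale (SE 0.25, edgeR adjusted p = 5.04e-05). Tpm4 RNA was at 403, 454 and 444 CPM in control and 464, 420.5 and 469 in HF libraries, and its footprints at 392, 359.7 and 353 and 182, 266 and 284. Tpm4 likewise overlapped in RNA (0.06, edgeR adjusted p = 0.646) and not in footprints, and TE fell by 0.71 (SE 0.17, edgeR adjusted p = 0.00247). The TE of all 4 tropomyosin genes thus fell, by 1.63-fold to 2.95-fold. Differences in TE between these 4 genes were not tested.

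**Figure D4:**
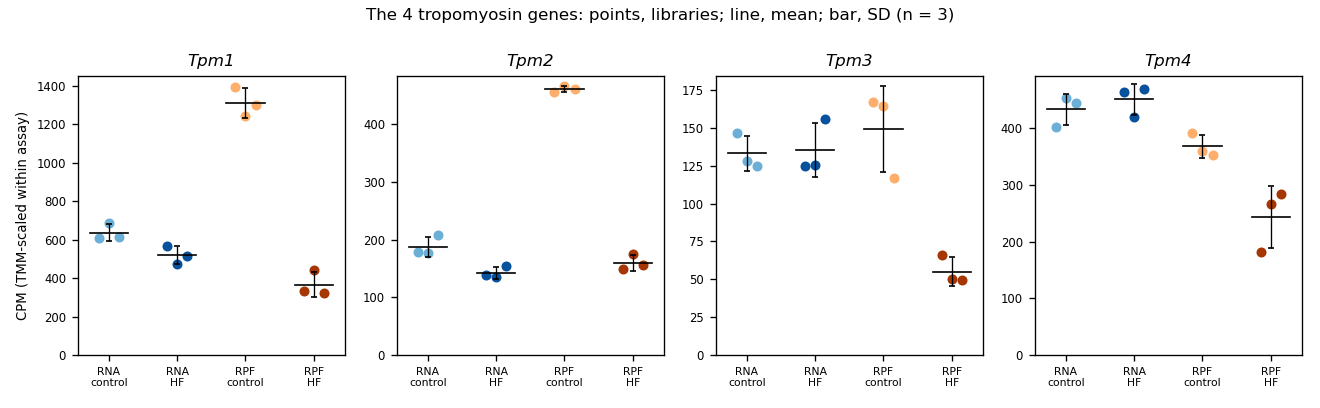
Levels of the 4 tropomyosin genes Tpm1, Tpm2, Tpm3 and Tpm4 in every library, in CPM scaled within assay on a linear y axis that starts at 0. Points are libraries, lines group means and bars SD (n = 3); HF footprints lie below control footprints in all 4, and HF and control RNA overlap in Tpm3 and Tpm4.

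TE levels place these changes. In control cells the log2 ratio of footprint to RNA CPM was 1.05 for Tpm1 and 1.30 for Tpm2, at percentiles 83.0 and 89.2 of 7926 genes. In HF cells it was -0.50 and 0.17, at percentiles 28.3 and 52.6. The 6 other genes measured in both assays ranged from 0.83 (Cnn2) to 1.78 (Actg1) in control cells, percentiles 76.3 to 95.7. In HF cells they ranged from 0.85 (Tagln) to 2.05 (Actg1), percentiles 77.2 to 98.6. In control cells all 8 genes thus lay at percentile 76.3 or above, and in HF cells the 6 without a TE call lay at 77.2 or above. These levels are relative to other genes, and differences in length between counted features and coding regions enter them.

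**Figure D5:**
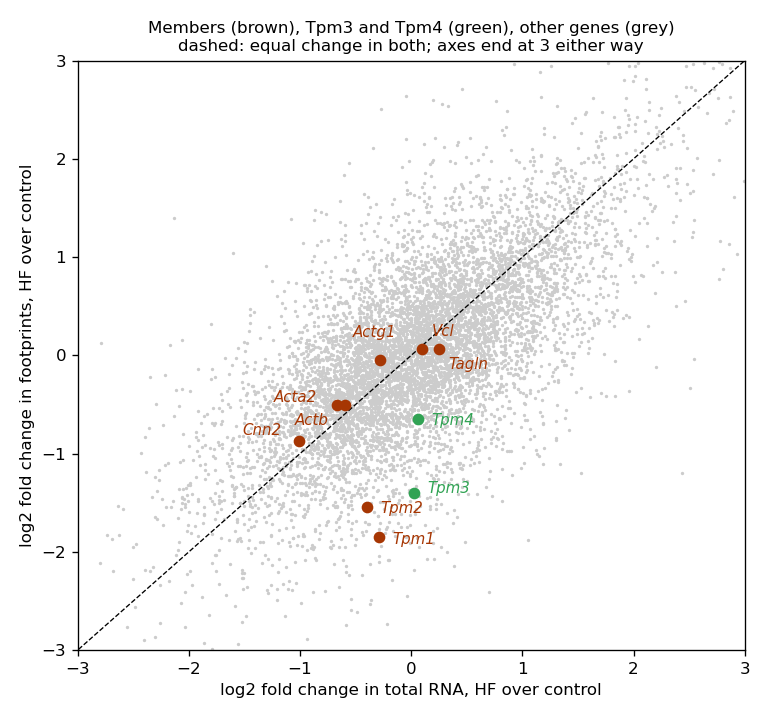
Log2 fold change in footprints (y axis) against that in total RNA (x axis), HF over control, for all genes tested in both (grey), 8 of the genes described here (brown) and Tpm3 and Tpm4 (green); the dashed line marks equal change. Actb, Acta2 and Cnn2 lie near the line at the lower left, and the 4 tropomyosins lie below it.

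Log2 CPM was next centred on its mean within each assay, which removes the difference in level between RNA and footprints. Over the 12 libraries these centred values of Tpm1 and Tpm2 had a Pearson r of 0.978, and Actb had 0.980 with Cnn2 and 0.930 with Acta2. Tpm1 had 0.738 with Actb, and Vcl had values from -0.578 to 0.101 with the other 7 genes. The 12 points share treatment and library factors, and the values are a description. Among 7926 genes on the same centred scale, the 3 most like Tpm2 were Lrp1 (0.988), Fam120a (0.988) and Hcfc1 (0.986). Those most like Actb were Mlf2 (0.991), S100a6 (0.987) and Rcc2 (0.986), and those most like Cnn2 were Rnf145 (0.992), Itgb5 (0.990) and Rcc2 (0.989). Sec31a, S100a4 and Limd1 were most like Acta2, with 0.980 to 0.981. For Actg1 the list was Adat1, Capzb and Vps18 (0.854 to 0.873), for Tagln Cstb, Hpf1 and Fbxo5 (0.932 to 0.941), and for Vcl Pkp1, Mcm8 and Ccdc93 (0.882 to 0.914).

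For Srf, Mrtfa and Mrtfb, the known regulators of these genes, no difference passed the test. Srf, at 109, 77.5 and 111 CPM in control and 94.1, 80.6 and 93.0 in HF RNA, differed by -0.16 (edgeR adjusted p = 0.497). Its footprints were few, 68, 31 and 12 counts in control and 16, 2 and 10 in HF libraries, and differed by -1.13 (edgeR adjusted p = 0.0548). Mrtfa differed by -0.37 in RNA and -0.17 in footprints, and Mrtfb by 0.20 and 0.39, with edgeR adjusted p of 0.128 or more. A list of SRF, its cofactors and ternary complex factors also holds Nr2f2, which is none of these. Of the 9 tested genes on the list, 1 rose and 2 fell in RNA, 2 rose and 2 fell in footprints, and 1 rose in TE. Nr2f2 was among those that fell (-0.53 in RNA, -1.03 in footprints). Over all genes tested the shares were 22.2% higher and 21.4% lower in RNA, 22.4% and 20.9% in footprints, and 6.13% and 8.23% in TE. The RNA and footprint counts of this list lie near them. Elk3, a ternary complex factor, fell by 1.24 in RNA and by 1.02 in footprints, and Fhl2, an SRF cofactor and target, changed by 1.48 and 1.47.

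Other genes linked to SRF rose more often than they fell in RNA. Of 27 tested cytoskeletal and contractile genes, 15 rose and 1 fell in RNA (all genes: 22.2% higher, 21.4% lower), with a median log2 fold change of 0.40. Of 28 in footprints, 13 rose and 6 fell (all genes: 22.4% and 20.9%). In TE 2 rose and 5 fell of 27 (all genes: 6.13% and 8.23%), the 5 being Tpm3, Tpm4, Myl12a and the non-muscle myosin heavy chain genes Myh9 and Myh10. Tagln2, a paralog of Tagln, rose in RNA (1.07), footprints (1.98) and TE (0.91), and Cnn3, a paralog of Cnn2, rose in RNA (0.55) and footprints (0.43). Of 10 early SRF targets, which growth factors induce within minutes, 9 rose and 0 fell in RNA, 8 and 0 in footprints, and 1 and 0 in TE, led in RNA by Egr2 (6.44) and Egr1 (6.36). This list also holds Srf itself, which passed neither the RNA nor the footprint test. Among 8 tested paralogs of the genes described here, a list that also holds Vcl, 4 rose and 0 fell in RNA, 2 rose and 3 fell in footprints, and 1 rose and 4 fell in TE. The lists share genes, so their counts are not independent.

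Genes that act on actin monomers and filament ends fell more often than they rose in RNA and footprints. Of 35 tested, 3 rose and 18 fell in RNA, where 22.2% of all genes rose and 21.4% fell, and the 18 include Coro1b (-1.27) and Evl (-1.34). Of 33 in footprints, 4 rose and 11 fell, where 22.4% of all genes rose and 20.9% fell. In TE 5 rose and 0 fell of 33 (all genes: 6.13% and 8.23%), including the monomer-binding genes Tmsb4x (0.91) and Pfn1 (0.44). Among 21 partners of vinculin at focal adhesions, 7 rose and 6 fell in RNA, 6 and 6 in footprints, and 1 and 0 in TE. The footprint and TE counts lie near the shares over all genes just given. The alpha-actinin gene Actn1 rose by 1.14 in RNA and 1.11 in footprints, while Tns1, which encodes tensin 1, fell by 1.87 and by 1.71.

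Of the 5 genes with a box of either form in the printed stretches, Cnn2 and Acta2 fell in RNA and in footprints, Actg1 and Vcl passed neither test, and Myl9 was not tested in RNA and did not pass in footprints. Tpm1 and Tpm2, with no box in the window read, fell in both assays.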

How the data were processed

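Per the submitters' processing notes, Bowtie, HISAT2 and HTSeq were used with GRCm38. The sources used here do not give their versions or roles, the counted feature or the use of strand. The authors deposited 1 table of whole-number counts per gene for each of 12 libraries, with no normalization. The quasi-likelihood test of edgeR 4.0.16 (R 4.3.3) was run on these counts after filterByExpr (minimum count 10), with TMM factors and Benjamini-Hochberg adjustment. RNA was tested over all genes, RPF over 21409 IDs protein-coding by RefSeq (matched by symbol, then by a synonym of 1 gene; synonyms were added after first results had been seen and changed no call of the 10 genes), and TE as the interaction over all libraries. CPM, intervals and ratios were computed here. Alternatives included limma 3.58.1 and DESeq2 1.42.0. Fits were tested on simulated data, where the TE test recovered fewer of the smaller changes than the RNA and RPF tests did.

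The 10 genes and all gene lists were chosen with earlier results of these data known. All 10 genes are named in every comparison, and list genes are named from the 2 highest and 2 lowest called in each comparison. Tpm3, Tpm4, paralogs and genes completing a count of 5 or fewer were named after their values had been seen. The genes most like Tpm1 across libraries and 1 gene list are not reported here. No spike-in is described, so a change shared by all genes would be missed. Between replicate libraries of a group, chi-square over degrees of freedom was 2.26 to 4.45, and none were identical. This ratio takes counts as independent. Most low counts were even in every library, so they may not be. The ratio therefore does not show whether replicate libraries differed more than counting noise.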

Additional observations from a re-analysis of the deposited data

How the results depend on the processing

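Among values of the tested genes under the alternatives, 112 of 128 in RNA, 136 of 144 in RPF and 156 of 160 in TE kept their direction and their side of the threshold. The count of genes higher in RNA, 1 (Tagln), became 0 with upper-quartile factors, DESeq2, a mean of at least 20 counts, all 12 libraries in 1 model and counts halved, and ranged from 0 to 1 when a replicate was left out. The count lower in RNA, 5, became 3 with no filter on low counts and ranged from 3 to 5 when a replicate was left out. The cause of these shifts was not tested. Counts halved was added after seeing the data, because 64.6% to 80.3% of counts from 1 to 20 were even, against about an equal split above 100.

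Values that changed sign were all uncalled. With upper-quartile factors the footprint differences were -0.018 for Tagln and -0.015 for Vcl, and the TE difference of Vcl was 0.0037 with a mean of at least 20 counts. When 1 replicate was left out, footprint differences ran from -0.21 to 0.043 for Actg1 (0.023 and 0.012 without RPF control 1 and 2, 0.043 without RPF HF 1), from -0.011 (without RPF HF 1) to 0.13 for Tagln, from -0.68 to 0.10 (without RPF HF 1) for Myl9 and from -0.0066 (without RPF HF 3) to 0.15 for Vcl. The TE difference of Vcl ran from -0.10 to 0.044, with 0.031, 0.0050 and 0.044 without RNA control 1, RNA HF 3 and RPF HF 2.

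The labels give groups the same replicate numbers but do not say that a number marks a shared culture, so the numbers were not taken as pairs. Deviations of same-numbered libraries had correlations from -0.0306 to 0.0234, and those of differently numbered libraries from -0.0305 to 0.0321. Counting noise enters these values, so they cannot show whether a culture was shared. A fit with the replicate number as a block gave 2005 higher and 1928 lower genes in RNA, 1818 and 1729 in RPF, and 434 and 592 in TE, and changed no count of the 10 genes (1 and 5, 0 and 5, 0 and 2). With footprint libraries as small as 562794 counts, genes as rare as Myl9 and Cnn1 give wide intervals or none.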
